A study of Mus musculus with 24 samples.

Results

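Olfactory epithelium of mice that smelled a 1:1 mixture of acetophenone and decanal (the AD mixture) was compared with that of mice that smelled decanal alone, over all genes. The 3 AD mixture and 3 decanal libraries are 6 of the 24 libraries of the study, and with 3 acetophenone and 3 no-odor libraries they form 1 batch of 12. All mice were wildtype male C57BL/6J aged 8 weeks. They were habituated for 4 h and then exposed for 90 min to 10 µL of the mixture, of decanal or of acetophenone on filter paper, or to an empty paper. At a 1:1 ratio the mixture holds 50% decanal in the same volume, though the labels do not say whether the ratio is by volume. The comparison asks how alike the 2 responses were although the mixture held less decanal. The study has no group with the lower amount of decanal alone, so the effect of that amount and the effect of added acetophenone cannot be told apart.

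Decanal is a straight-chain aldehyde and acetophenone an aromatic ketone. In the epithelium each mature sensory neuron expresses 1 olfactory receptor gene, and odorant binding opens ion channels through a G protein and cyclic AMP. Strong or lasting activity induces early response genes such as Fos, Egr1 and Nr4a1 within an hour or so, and more slowly raises genes such as S100a5, Kirrel2 and Lrrc3b. Supporting cells rich in detoxifying enzymes, stem cells and glands surround the neurons, and blood, marrow and nasal bone can enter the dissected piece.

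The 6 libraries held 20604861 to 23853494 counts. Omp, which only mature sensory neurons express in the epithelium, had 8875, 9781 and 10950 CPM (counts scaled to a common library size) with the mixture, against 9837, 10790 and 10770 CPM with decanal, and 9115 to 9805 CPM with no odor, so all libraries held the labelled tissue. In bulk tissue, fewer cells of a type and less RNA per cell cannot be told apart. Libraries of a group are biological replicates, per the labels.

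Between AD mixture and decanal no gene was called. Of 19525 genes tested with edgeR's quasi-likelihood test, 0 passed an adjusted p under 0.05 (0%), and the smallest adjusted p was 0.123, for Heg1. At an unadjusted p under 0.05 stood 1090 genes, 568 higher and 522 lower with the mixture, or 5.58% of those tested. Among genes that do not differ, a share of 0.05 is expected there. The 3 libraries of one group lay wholly above or below those of the other in 1862 genes, 9.54%, with the mixture above in 952 (4.88%) and below in 910 (4.66%). For a gene that does not differ, the probability of such a separation in either direction is 0.1. DESeq2 called 2 genes (0.0102%), Heg1 and Npcd, limma voom 0, and a robust edgeR fit 1, Heg1. Without decanal 3 the 1 gene called was Gm14288, a predicted gene named here after its value was seen, and without AD mixture 3 it was Heg1. With no low-count filter edgeR called 136 of 33152 genes (0.41%), 90 higher and 46 lower, of which 49 were at 0 in at least 1 of the 6 libraries and 27 were immunoglobulin segments. The filter keeps 116 of these, and 38 of the 116 had no overlap between the groups. Genes with many counts that are named below were also called in that fit. Without the filter edgeR gave Nr4a1 an adjusted p of 1.86e-16, Egr1 1.83e-11, Heg1 7.94e-08 and S100a9 9.61e-07. Not all named genes were called there: Rab12 stood at 0.17 and Pick1 at 0.347. Why the fits with and without the filter differ was not tested.

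The absence of calls does not show equality, so the interval of each difference was used to ask how large a difference the data still allow. In 16230 genes, 83.1% of those tested, the 95% interval of the difference lay within 2-fold either way, and in 68.1% it lay within 1.5-fold. The share was larger at greater depth. Among genes with a mean count of 500 or more, 99.6% had an interval within 2-fold, among those with 50 to 500 counts 97.05%, and among those under 50 counts 33.6%. The median size of the log2 difference was 0.05 in the first of these classes, 0.10 in the second and 0.27 in the third. In 15 genes the whole interval lay beyond 2-fold, 13 of them with a mean count under 50.

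Libraries of the 2 odorants were about as near to each other as to their own replicates. The root mean square log2 CPM difference over all genes was 0.461 to 0.519 for the 9 pairs of an AD mixture and a decanal library. It was 0.492 to 0.536 between AD mixture libraries and 0.467 to 0.508 between decanal libraries. Pairs within acetophenone stood at 0.457 to 0.586 and pairs within no odor at 0.437 to 0.542. Against no odor the distances were 0.520 to 0.627 for the mixture and 0.544 to 0.644 for decanal. On the first principal component, which held 26.1% of the variance of the 12 libraries, the mixture stood at 22.9 to 31.6 and decanal at 23.2 to 30.6, against -23.7 to -40.7 for acetophenone and -18.2 to -20.3 for no odor.

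**Figure D1:**
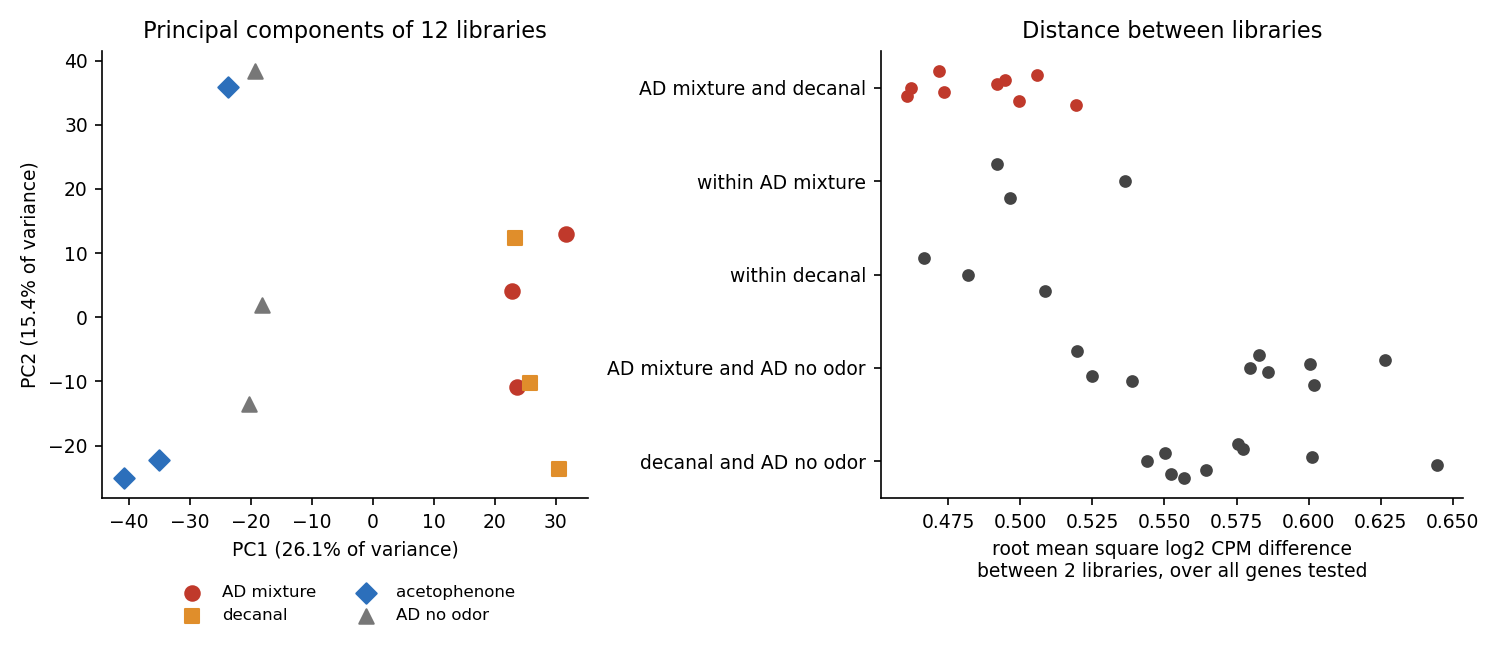
Left, the first and second principal components of log2 CPM in the 12 libraries of the batch, 1 point a library. Right, the root mean square log2 CPM difference of each pair of libraries: the 9 mixture-decanal pairs, at 0.461 to 0.519, overlap the pairs within the mixture and within decanal, at 0.467 to 0.536. The pairs with no odor lie at 0.520 to 0.644, and the lowest of them also fall in the range of pairs within the mixture.

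Set against the same 3 no-odor libraries, the mixture had 4347 genes called, 22.3% of those tested, and decanal 4660, 23.9%. These comparisons share their controls, so a likeness between them is given by the levels themselves and by the direct difference. The mixture was also set against the midpoint of the log2 levels of no odor and decanal, a comparison added after the data were seen. There 571 genes were higher (2.92%) and 508 lower (2.6%), 5.53% of genes by edgeR's quasi-likelihood test. The count of both was 624 without AD mixture 3, 629 without AD mixture 1, 708 without decanal 2 and 718 without no odor 2. Higher than the midpoint means nearer to decanal only for genes that decanal raised. Some genes called there lay outside both levels, such as Heg1, above both, and Pick1, below both. The counts therefore do not place the mixture between no odor and decanal. The midpoint is an arithmetic mark, and how levels follow the amount of decanal was not measured.

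Transcripts encoded in mitochondrial DNA, which include those for respiratory chain subunits and the organelle's ribosomal RNA, stood near the decanal level with the mixture. Their share of counts was 0.791%, 0.752% and 0.881% in the mixture libraries and 0.795%, 0.776% and 0.753% in the decanal libraries, against 0.259% to 0.325% with acetophenone and 0.233% to 0.276% with no odor. The mixture and decanal libraries overlapped, and the difference of their means, 0.0335 percentage points, had an exact two-sided permutation p of 0.7 (0.9 adjusted over 6 shares compared), where the smallest p that 3 against 3 libraries allow is 0.1. mt-Nd1 (ENSMUSG00000064341), a subunit of complex I, stood at 676, 649 and 775 CPM with the mixture, against 672, 665 and 636 CPM with decanal and 192 to 227 CPM with no odor. AD mixture 3 was the highest, AD mixture 1 lay just above the decanal libraries and AD mixture 2 among them. The log2 difference was 0.09 (95% interval -0.07 to 0.25), where mixture against no odor was 1.71 and decanal against no odor 1.62. Of 15 mitochondrially encoded genes tested, out of 37 in the table, 14 lay above the midpoint and were called there (5.53% of all genes were called). The median difference between mixture and decanal was 0.05. Of the 15 genes mt-Atp8, a subunit of the ATP synthase, had the smallest p, with a difference of 0.37 (95% interval 0.08 to 0.65). Its adjusted p was 0.887 in edgeR, and the mixture and decanal libraries overlapped.

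Genes for cytosolic ribosomal proteins rose with both against no odor, 79 of 82 tested with the mixture and 79 with decanal, where 10.6% and 11.4% of all genes rose. Their medians were 0.56 with the mixture and 0.46 with decanal. Directly compared, 76 of 82 had a positive difference, against 50.9% of all genes, with a median of 0.08. In 16 the unadjusted p was under 0.05, all 16 higher with the mixture, where 2.91% of all genes were. These genes are read from the same libraries, so such counts are not of independent members. Their share of counts overlapped between mixture and decanal libraries, with a difference of means of 0.0357 percentage points. That difference had an exact two-sided permutation p of 0.3 (0.6 adjusted over 6 shares). Rpl35, a protein of the large subunit, had 100.3, 94.6 and 103.8 CPM with the mixture, against 90.1, 81.3 and 89.5 CPM with decanal. All 3 mixture libraries lay above all 3 of decanal, and the log2 difference of 0.20 (SE 0.05) had an adjusted p of 0.887 in edgeR. Rps19, of the small subunit, had 142, 132 and 145 CPM with the mixture, against 134, 127 and 138 CPM with decanal, and these groups overlapped. Nuclear genes of the respiratory chain had a median of 0.04 over 82 genes. Cox7b, a subunit of cytochrome c oxidase, had 89.3, 90.9 and 102.0 CPM with the mixture, against 80.1, 80.5 and 80.6 CPM with decanal, a log2 difference of 0.23 (SE 0.06, adjusted p = 0.887 in edgeR). Genes of mitochondrial ribosomal proteins had a median of 0.01 over 79 genes.

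Genes of the mature neuron and of odor transduction, which fell against no odor in 12 of 19 cases with the mixture and in 10 with decanal (11.6% and 12.5% of all genes fell), differed between the 2 by a median of -0.04, with 17 of 19 negative. That median was 0.05 without AD mixture 1, the library with the lowest summed level of the list, 19890 CPM. Adcy3, the adenylyl cyclase of the pathway, had 679, 869 and 789 CPM with the mixture, against 802, 891 and 826 CPM with decanal, a log2 difference of -0.11 (95% interval -0.27 to 0.05). Gnal, its stimulating G protein, differed by -0.01, and Pde1c, a phosphodiesterase that breaks down cyclic nucleotides, by -0.03. Gng13, a G protein gamma subunit, rose with both against no odor, by 0.61 with the mixture and by 0.51 with decanal. Of these 19 genes Kcnk10, a potassium channel gene, had the smallest p between the 2, at 40.7, 40.4 and 44.7 CPM with the mixture, against 45.1, 49.5 and 51.0 CPM with decanal. It lay lower in all 3 mixture libraries, with a log2 difference of -0.21 (SE 0.07, adjusted p = 0.887 in edgeR).

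**Figure D2:**
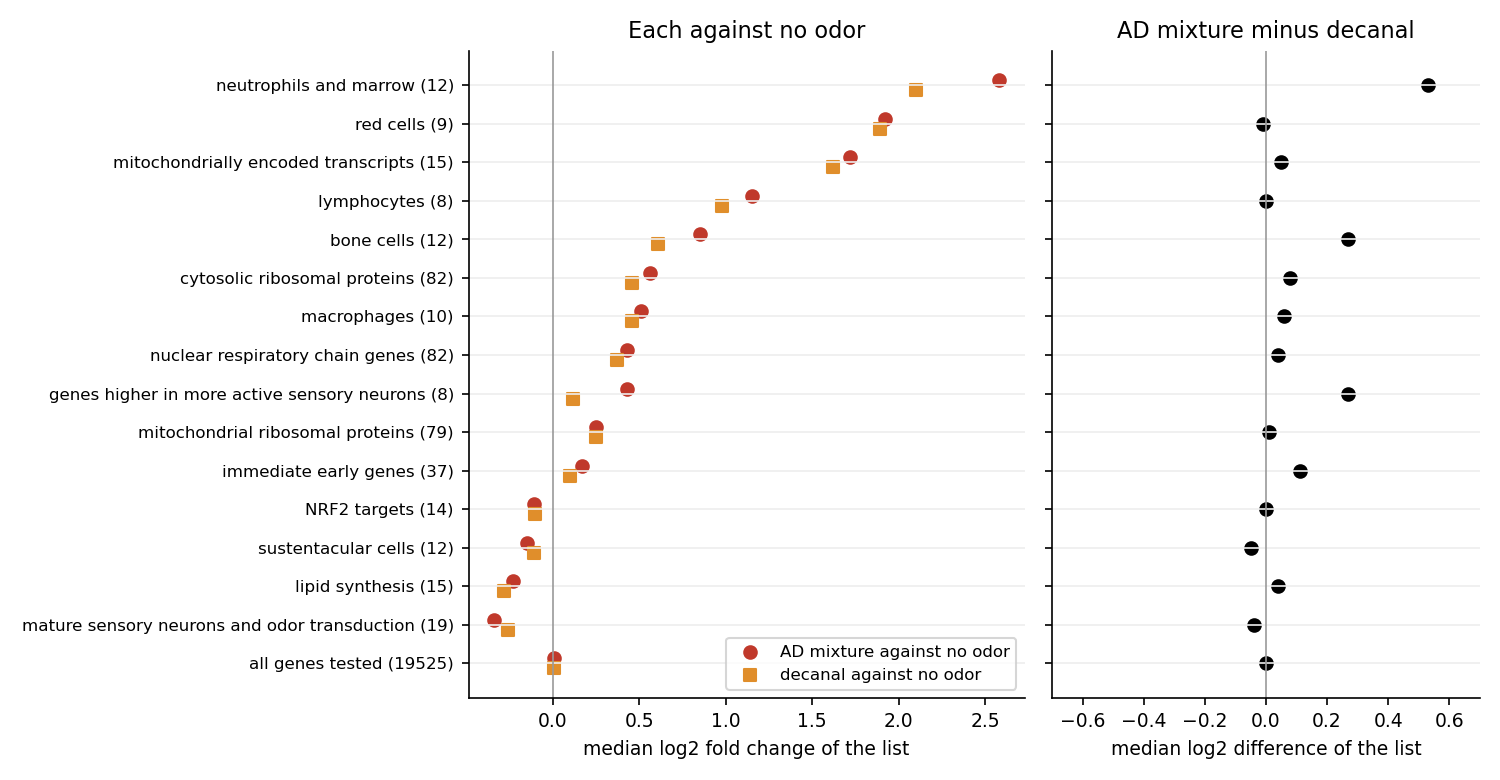
Median log2 fold change of gene lists, with the number of genes tested in brackets: AD mixture (circles) and decanal (squares) against the shared no-odor libraries on the left, and the direct difference, mixture minus decanal, on the right. The mitochondrially encoded list stands at 1.72 with the mixture and 1.62 with decanal, with a direct median of 0.05, while the neutrophil, bone and active neuron lists stand at 0.53, 0.27 and 0.27.

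Among single genes, Heg1 came nearest to a call. Heg1 (ENSMUSG00000075254) encodes a membrane protein with EGF-like domains that endothelial cells use at their junctions. It had 47.3, 49.2 and 41.1 CPM with the mixture, against 34.6, 32.5 and 28.9 CPM with decanal, 35.3 to 36.4 CPM with acetophenone and 31.1 to 33.3 CPM with no odor. All 3 mixture libraries lay above the other 9 of the batch. The level was 1.43-fold that with decanal (95% interval 1.28 to 1.60), with an adjusted p of 0.123 in edgeR and 2.08e-05 in DESeq2. Against no odor it rose with the mixture, by 0.51 (adjusted p = 0.000242 in edgeR), while decanal stood at -0.01. The 7 endothelial marker genes had a median difference of 0.05 between mixture and decanal, with 0 at an unadjusted p under 0.05 in edgeR.

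Heg1 and the genes of this paragraph and the next were picked for a small p and for groups without overlap. So were Cox7b, Nr4a1, Olfr160 and Olfr1358, described in other paragraphs. Their lack of overlap is therefore no separate result. The decanal libraries that picked them also enter their comparison with no odor. Of the next genes by p, Ube2j1, Dck, Cnot7 and the olfactory receptor Olfr1281 fell with decanal against no odor and were not called with the mixture against no odor. Ube2j1, a ubiquitin-conjugating enzyme of the endoplasmic reticulum, had 60.9, 61.3 and 60.3 CPM with the mixture, against 53.8, 50.1 and 48.4 CPM with decanal and 60.2 to 68.2 CPM with no odor. The mixture libraries lay above those of decanal and within the no-odor range, a log2 difference of 0.26 (SE 0.06, adjusted p = 0.76 in edgeR). Dck, the deoxycytidine kinase that salvages nucleosides, had 43.6, 46.7 and 46.8 CPM with the mixture, against 37.9, 40.6 and 37.1 CPM with decanal and 44.4 to 45.5 CPM with no odor. Cnot7, a deadenylase that shortens poly(A) tails, had a difference of 0.21, and it fell with decanal against no odor by 0.17 (adjusted p = 0.0148 in edgeR) while the mixture stood at 0.04. Rab12, a small GTPase of membrane traffic, differed otherwise: 36.9, 35.6 and 36.3 CPM with the mixture, against 31.2, 29.5 and 30.0 CPM with decanal and 28.8 to 31.6 CPM with no odor. Its groups did not overlap, and the difference was 0.26 (adjusted p = 0.76 in edgeR).

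In the other direction, Pick1, a scaffold protein that binds protein kinase C and glutamate receptors, had 114.5, 113.3 and 113.9 CPM with the mixture, against 130.3, 127.7 and 130.9 CPM with decanal and 131 to 139 CPM with no odor. All mixture libraries were lower, with a log2 difference of -0.19 (SE 0.04, adjusted p = 0.76 in edgeR). Cdh23, a cadherin known from the links of hair cells, had 12.8, 13.9 and 13.3 CPM with the mixture, against 17.8, 17.9 and 17.0 CPM with decanal and 11.5 to 12.7 CPM with no odor. It rose with decanal, by 0.55 (adjusted p = 0.000663 in edgeR), and stood at 0.15 with the mixture. Yipf2, a Golgi membrane protein, was alike in this, rising with decanal by 0.33 and standing at 0.06 with the mixture. Slc27a4, a fatty acid transporter, Lrwd1, a protein of the replication origin complex, and P4htm, a prolyl hydroxylase, differed between mixture and decanal by -0.23, -0.25 and -0.21.

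Npcd, the other gene called by DESeq2 (log2 difference 3.50, adjusted p = 0.00177), was low in both groups. It had 0.521, 0.675 and 1.65 CPM with the mixture, against 0.127, 0.125 and 0 CPM with decanal, 3.97 to 5.63 CPM with acetophenone and 4.38 to 4.81 CPM with no odor. The mixture libraries lay between those of decanal and those of no odor without overlap. It fell against no odor by 2.26 with the mixture and by 5.68 with decanal (adjusted p = 0.00034 and 5.6e-06 in edgeR), and its mean count over the 6 libraries was 11.7. The Npcd transcript shares exons with a neighbouring gene, so its reads may be split between them. The largest differences at a mean count over 20, among genes again picked for groups without overlap, lay in low genes. Slc16a12, of the monocarboxylate transporter family, had 1.91, 1.35 and 1.52 CPM with the mixture, against 0.550, 0.625 and 0.728 CPM with decanal and 1.25 to 1.62 CPM with no odor. Gucy1b1, a subunit of the nitric oxide receptor, had 1.17, 1.69 and 1.69 CPM with the mixture, against 0.719, 0.500 and 0.728 CPM with decanal. Both lay higher in all 3 mixture libraries, by 1.32 (95% interval 0.60 to 2.05) and 1.22 (0.51 to 1.93), with an adjusted p of 0.887 each in edgeR. Aoah, which inactivates bacterial lipopolysaccharide, differed by 1.13, and Pcdhga2, a clustered protocadherin whose constant exons other members of the cluster share, by -1.34. Igkv10-96, an immunoglobulin segment, stood out through 1 library, with 5.04 CPM in AD mixture 1 and 0.127 to 0.482 CPM in the other 5 libraries. Ighv1-15 had 0.0869, 0 and 0 CPM with the mixture, against 3.42, 1.33 and 0.514 CPM with decanal, and Igkv12-44 had 0.434, 0.530 and 0.130 CPM with the mixture, against 3.00, 1.79 and 0.685 CPM with decanal. Both lay lower in all 3 mixture libraries, and neither was called. These segments have near-identical copies, which makes their counts uncertain.

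**Figure D3:**
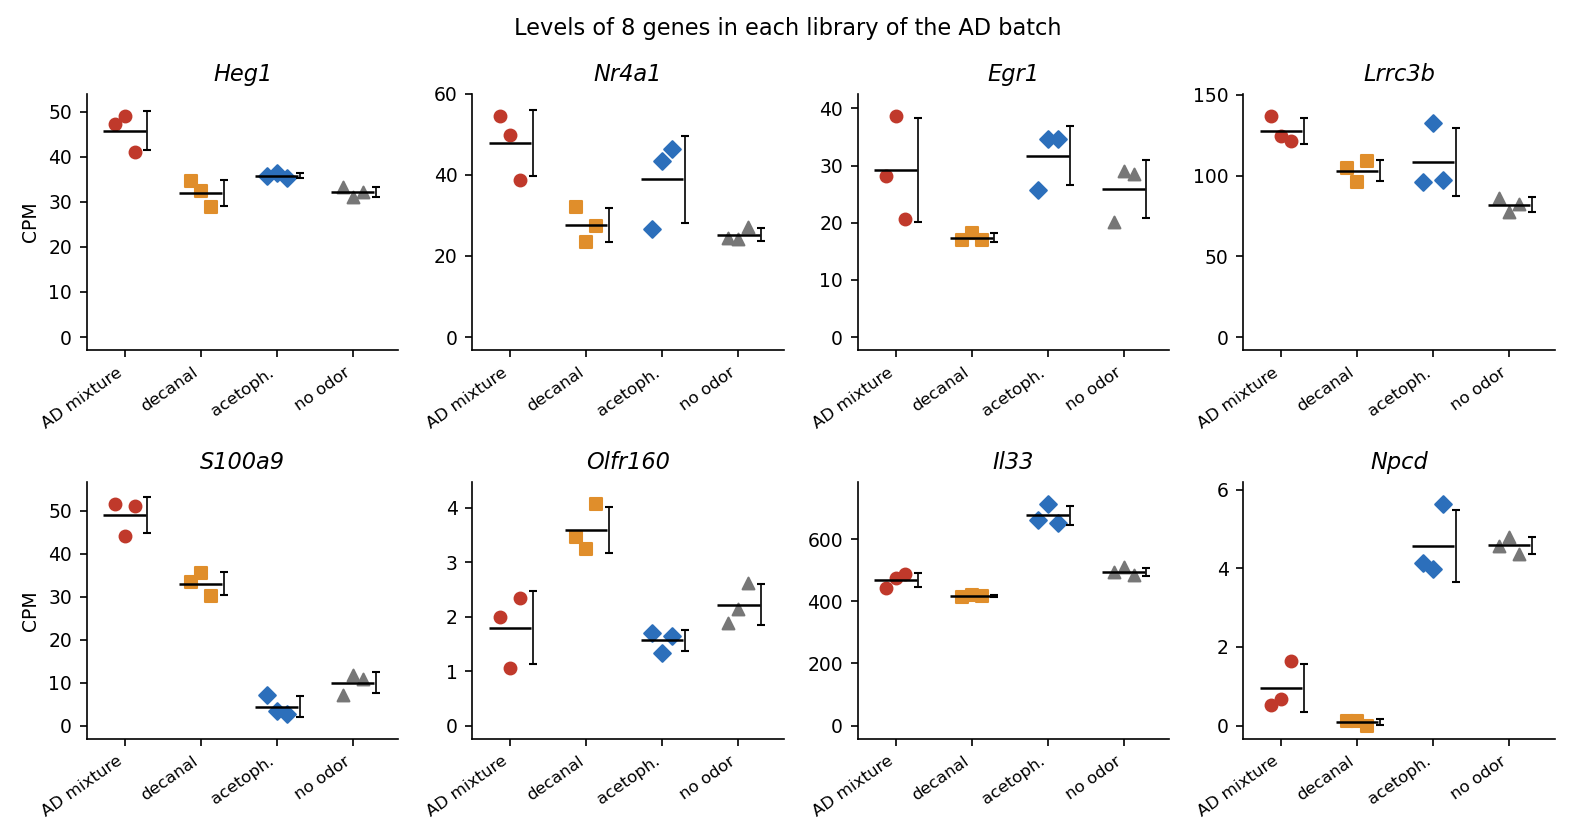
CPM of 8 genes in each library of the batch, with the mean (line) and SD (bar) of 3 libraries, in the order AD mixture, decanal, acetophenone, no odor. Heg1, Nr4a1, Egr1, Lrrc3b, S100a9 and Il33 lie higher in all 3 mixture libraries than in all 3 decanal libraries, and Olfr160 lies lower. Heg1, Nr4a1 and Olfr160 were among the genes picked for such a separation.

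Early response genes were compared because they mark recent activity. Of 37 tested of 38 listed, 28 had a positive difference, against 50.9% of all genes. In 4 the unadjusted p was under 0.05, all 4 higher with the mixture (2.91% of all genes), and 0 passed the adjusted p in edgeR. Their median was 0.11, and 0.06 without AD mixture 1. Nr4a1 (ENSMUSG00000023034), a nuclear receptor induced by calcium and cyclic AMP, had 54.6, 49.9 and 38.8 CPM with the mixture, against 32.1, 23.5 and 27.3 CPM with decanal, 26.7, 43.5 and 46.5 CPM with acetophenone and 24.2 to 27.0 CPM with no odor. All mixture libraries lay above all decanal libraries, and 2 of the 3 acetophenone libraries lay in the mixture's range. Nr4a1 was among the genes picked for groups without overlap, so its lack of overlap is no separate result. The difference was 0.79 (95% interval 0.42 to 1.16, adjusted p = 0.76 in edgeR). Egr1, a zinc finger factor, had 28.2, 38.8 and 20.7 CPM with the mixture, against 17.0, 18.3 and 16.9 CPM with decanal, 25.8 to 34.7 CPM with acetophenone and 20.1 to 29.0 CPM with no odor. Decanal was low and the mixture stood within or above the no-odor range: the difference was 0.75 (95% interval 0.34 to 1.15), with an adjusted p of 0.887. It was 0.50 without AD mixture 2. Fos, a subunit of the AP-1 factor, had 11.5, 22.8 and 8.42 CPM with the mixture, against 8.96, 8.59 and 9.64 CPM with decanal. AD mixture 2 was the one high library, and the groups overlapped. Btg2, an antiproliferative gene, differed by 0.23, and Npas4, a neuronal factor, was at 0.217 to 0.478 CPM with the mixture and 0.300 to 0.465 CPM with decanal, too few counts to compare.

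The cyclic AMP response element binding protein CREB drives Nr4a1 and Fos through short sites before their start. To show them, the 250 bases before the start of Nr4a1, Fos and Heg1 are given from RefSeq on GRCm38.p6, an earlier build than that of the counts, with each core motif TGACG, or CGTCA on the other strand, in capitals. Nr4a1 lies at chr15:101266596-101266845, Fos at chr12:85473640-85473889 and Heg1 at chr16:33684216-33684465, all on the + strand.
Nr4a1: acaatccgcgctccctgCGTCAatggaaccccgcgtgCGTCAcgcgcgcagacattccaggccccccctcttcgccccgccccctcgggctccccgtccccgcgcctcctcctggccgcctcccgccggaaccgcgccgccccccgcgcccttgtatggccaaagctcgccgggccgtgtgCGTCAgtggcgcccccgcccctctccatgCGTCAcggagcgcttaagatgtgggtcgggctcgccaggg
Fos: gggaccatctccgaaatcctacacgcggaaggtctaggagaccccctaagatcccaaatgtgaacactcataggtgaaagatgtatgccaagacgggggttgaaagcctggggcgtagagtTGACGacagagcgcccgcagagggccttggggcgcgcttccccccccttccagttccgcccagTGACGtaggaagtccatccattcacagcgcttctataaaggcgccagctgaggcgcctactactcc
Heg1: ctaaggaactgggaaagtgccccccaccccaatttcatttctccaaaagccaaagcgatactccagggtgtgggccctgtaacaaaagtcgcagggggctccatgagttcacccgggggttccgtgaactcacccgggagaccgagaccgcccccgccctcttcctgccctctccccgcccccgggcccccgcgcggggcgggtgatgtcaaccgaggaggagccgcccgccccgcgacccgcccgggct
Nr4a1 holds 4 core motifs, all CGTCA, Fos 2, all TGACG, and Heg1 none. Of 32851 such windows 17.8% hold at least 1, 3.9% at least 2 and 0.137% at least 4. Of the 38 early response genes 29 are in the table, and 19 of them have at least 1 in any of their windows, where 19.8% of all genes have. These are matches of letters, not measured sites, and binding was not measured.

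Genes that more active sensory neurons raise gave a median of 0.27 over 8 genes, 7 of them positive (50.9% of all genes). At an unadjusted p under 0.05 stood 2, both higher (2.91% of all genes), and edgeR called 0. The median ran from 0.16 to 0.34 when 1 library was left out. The summed level of the list averaged 2985 CPM with the mixture and 2962 CPM with decanal. Lrrc3b, a leucine-rich repeat membrane protein, had 137, 124 and 122 CPM with the mixture, against 104, 96.0 and 109 CPM with decanal and 77.2 to 86.3 CPM with no odor. These 3 groups did not overlap, with the mixture highest and decanal next, and mixture minus decanal was 0.31 (SE 0.10, adjusted p = 0.887 in edgeR). Acetophenone libraries had 95.9, 133 and 97.0 CPM of Lrrc3b, with acetophenone 2 in the mixture's range. Kcng1, a silent potassium channel subunit, had 39.4, 40.3 and 27.7 CPM with the mixture, against 25.9, 21.0 and 25.5 CPM with decanal. It lay higher in all 3 mixture libraries, by 0.57 (95% interval 0.16 to 0.98), and had 23.7, 46.4 and 29.8 CPM with acetophenone. Kirrel2, an adhesion molecule that sorts axons, had 432, 517 and 347 CPM with the mixture, against 349, 321 and 348 CPM with decanal, where AD mixture 3 lay among the decanal libraries. With acetophenone Kirrel2 had 268, 551 and 354 CPM. S100a5, a calcium-binding protein, had 838, 743 and 944 CPM with the mixture, against 804, 806 and 870 CPM with decanal, a difference of 0.03 (95% interval -0.16 to 0.22). Pcdh10, a protocadherin, differed by 0.29, and Pcp4l1, a calmodulin-binding peptide, by -0.14. Of immature neurons, Gap43, the growth cone protein, differed by 0.11 (95% interval -0.06 to 0.27), and Gng8, a G protein subunit, had 29.4, 23.7 and 25.6 CPM with the mixture, against 22.6, 20.3 and 22.1 CPM with decanal.

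Against no odor 11 of 12 bone genes rose with the mixture and 8 with decanal, and 10 of 12 neutrophil and marrow genes rose with the mixture and 11 with decanal, where 10.6% and 11.4% of all genes rose. Between mixture and decanal no member of these lists was called. Of the bone genes 11 had a positive difference, and 9 an unadjusted p under 0.05, all higher with the mixture (2.91% of all genes). In 2 of the 12, Bglap and Sp7, all 3 mixture libraries lay above all 3 decanal libraries (4.88% of all genes). The members are read from the same libraries, so such counts are not of independent members. Their median was 0.27, and 0.19 without AD mixture 1 or 0.42 without AD mixture 3. Col1a1, the chain of bone and skin collagen, had 1137, 889.8 and 681.7 CPM with the mixture, against 542.5, 593.0 and 846.0 CPM with decanal. AD mixture 1 and 2 were the highest, while AD mixture 3 lay below decanal 3, and the difference was 0.45 (95% interval 0.10 to 0.81, adjusted p = 0.887 in edgeR). Bglap, osteocalcin, had 182.7, 150.1 and 140.2 CPM with the mixture, against 108.8, 128.9 and 132.8 CPM with decanal and 60.6 to 70.2 CPM with no odor. It was higher in all 3 mixture libraries, by 0.35 (SE 0.10), and lay above the midpoint by 0.79 (adjusted p = 0.000178 in edgeR). Sp7, the osteoblast transcription factor, had 25.9, 30.1 and 23.1 CPM with the mixture, against 20.8, 22.1 and 22.3 CPM with decanal and 21.6 to 22.4 CPM with no odor, again without overlap. Mmp13, a collagenase, differed by 0.30, and Spp1, osteopontin, by -0.00. Summed over the list, the level was 4227, 3643 and 2780 CPM with the mixture, against 2619, 2757 and 3307 CPM with decanal, and its part in the differences of other genes was not tested. These sums overlapped. The difference in the share of counts of the bone list had an exact two-sided permutation p of 0.3 (0.6 adjusted over 6 shares). Of 42 collagen genes 28 had a positive difference, with a median of 0.10, which was 0.01 without AD mixture 1, 0.06 without decanal 2, 0.19 without decanal 3 and 0.22 without AD mixture 3.

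The 12 neutrophil and marrow genes had a median of 0.53, with 10 positive (50.9% of all genes) and 3 at an unadjusted p under 0.05, all higher (2.91% of all genes). Leaving out 1 library gave medians from 0.35 without decanal 3 to 0.62 without AD mixture 2. Summed over the list, the level was 495.2, 338.3 and 466.6 CPM with the mixture, against 467.9, 321.8 and 335.2 CPM with decanal. These sums overlapped. With no odor they were 206.3, 183.8 and 625.8 CPM, so no odor 3 lay above all mixture and decanal libraries. The difference in the share of counts of this list had an exact two-sided permutation p of 0.3 (0.6 adjusted over 6 shares). S100a9, of the neutrophil protein calprotectin, had 51.5, 44.1 and 51.2 CPM with the mixture, against 33.5, 35.4 and 30.1 CPM with decanal, 2.67 to 7.17 CPM with acetophenone and 7.21 to 11.8 CPM with no odor. The mixture was highest without overlap, by 0.57 over decanal (95% interval 0.14 to 1.00, adjusted p = 0.887 in edgeR). Chil3, a chitinase-like protein of myeloid cells, had 8.95, 9.74 and 12.3 CPM with the mixture, against 8.45, 6.67 and 5.35 CPM with decanal, and differed by 0.60. Camp, a granule peptide, had 7.78, 6.94 and 13.2 CPM with the mixture, against 7.48, 6.84 and 4.88 CPM with decanal, and these groups overlapped. The interval of Camp, -0.13 to 1.21, allows more than a 2-fold rise. For red cell genes the median was -0.01 over 9 genes, and Hbb-bs, adult beta globin, had 671, 961 and 850 CPM with the mixture, against 961, 802 and 804 CPM with decanal. Slc4a1, the anion exchanger of red cells, differed by 0.39 with an interval of -0.41 to 1.18. Macrophage genes had a median of 0.06 over 10 genes and lymphocyte genes 0.00 over 8.

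**Figure D4:**
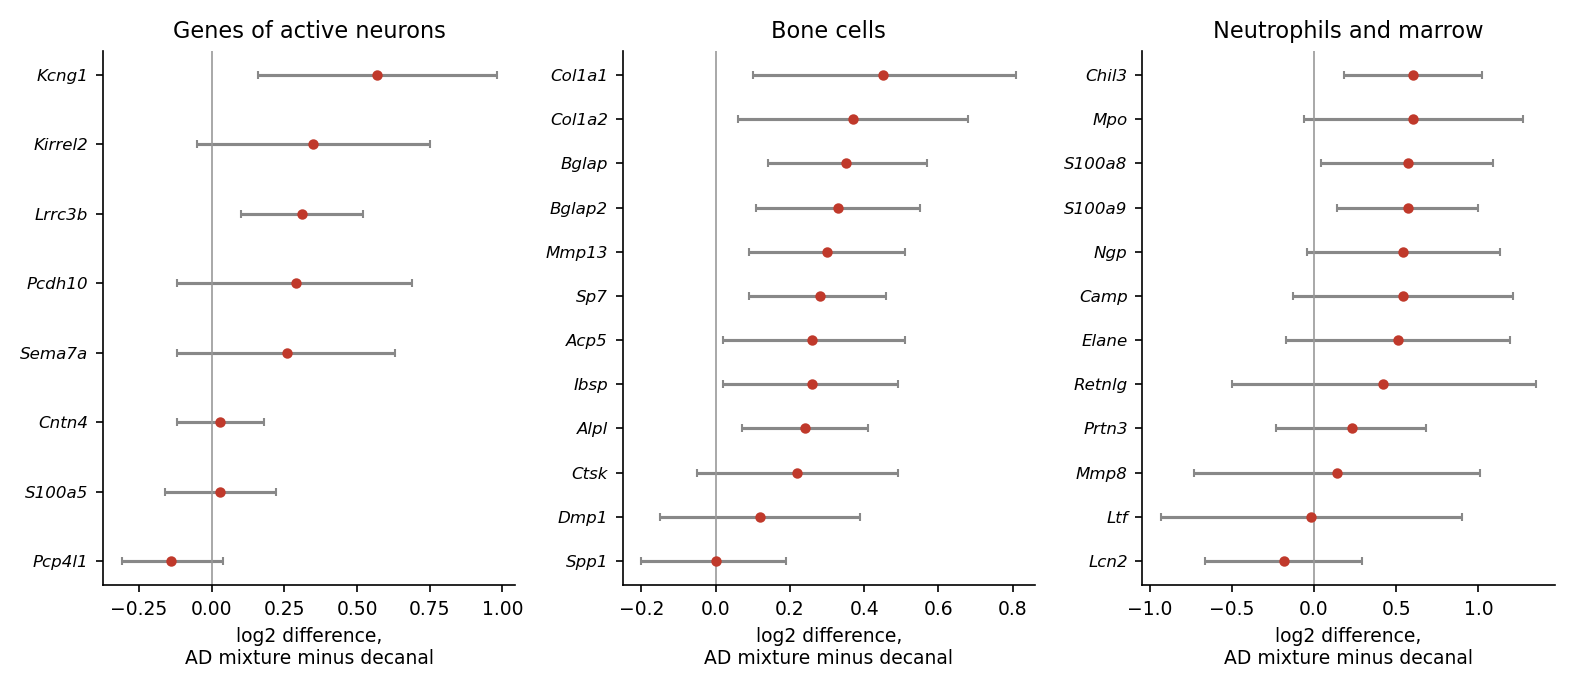
Log2 difference, AD mixture minus decanal, with its 95% interval from the edgeR fit, for genes raised in more active sensory neurons, for bone cell genes and for neutrophil and marrow genes. Of the 12 bone genes 9 have an interval above 0, and none of the 3 lists holds a gene called over all genes.

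No olfactory receptor was called between mixture and decanal. Of 979 tested of 1407 listed, pseudogenes included, 616 had a negative difference, against 49.1% of all genes. At an unadjusted p under 0.05 stood 22 higher and 46 lower, against 2.91% and 2.67% of all genes, and 0 were called in edgeR. The median was -0.09, and it ran from -0.21 without AD mixture 3 to 0.00 without AD mixture 1. Their share of all counts was 0.419%, 0.502% and 0.518% in the mixture libraries, against 0.456%, 0.528% and 0.478% in the decanal libraries, which overlapped. Class I receptors, related to those of fish, had a median of -0.27 over 108 genes, 90 of them negative, and class II receptors, the larger class, one of -0.07 over 844 genes, 509 negative. The class I value rests on AD mixture 2, where the summed class I level was 155 CPM, against 279 and 301 CPM in the other mixture libraries and 260, 320 and 295 CPM with decanal. Without AD mixture 2 the class I median was -0.01. The class II median was 0.03 without AD mixture 1 and 0.02 without decanal 2. The 8 trace amine-associated receptors tested had a median of -0.28, 6 of them negative, which was -0.15 without AD mixture 1 and -0.46 without AD mixture 3.

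Olfr160, also called M72, is a receptor that acetophenone activates. It had 2.00, 1.06 and 2.34 CPM with the mixture, against 3.47, 3.25 and 4.07 CPM with decanal, 1.34 to 1.70 CPM with acetophenone and 1.89 to 2.63 CPM with no odor. Decanal was the highest of the 4 groups, without overlap with the mixture. Olfr160, Olfr1281 and Olfr1358 were among the genes picked for groups without overlap, so their lack of overlap is no separate result. The level with the mixture was 0.504-fold that with decanal (log2 difference -0.99, 95% interval -1.53 to -0.44), with an unadjusted p of 0.00157 and an adjusted p of 0.887 in edgeR, on a mean of 62.8 counts. Olfr145 had 3.08, 3.42 and 4.86 CPM with the mixture, against 6.97, 5.71 and 5.18 CPM with decanal, 2.26 to 4.02 CPM with acetophenone and 4.68 to 5.88 CPM with no odor, a difference of -0.65. In Olfr1281 decanal was the low group: 17.7, 19.1 and 20.7 CPM with the mixture, against 9.60, 15.1 and 12.9 CPM with decanal and 14.6 to 19.8 CPM with no odor. All 3 mixture libraries were higher, by 0.61 (95% interval 0.30 to 0.92, adjusted p = 0.76 in edgeR). Olfr1358 differed by -1.01 at 0.627 to 0.739 CPM with the mixture and 1.16 to 1.65 CPM with decanal. The receptor of smallest p was the pseudogene Olfr766-ps1 (unadjusted p = 0.000294, adjusted p = 0.76 in edgeR), on a mean of 16.3 counts. It had 0.174, 0.145 and 0.434 CPM with the mixture, against 1.06, 1.46 and 0.899 CPM with decanal. The log2 difference was -2.15 (95% interval -3.12 to -1.17). Against no odor the mixture stood at -1.57 (adjusted p = 0.0263 in edgeR) and decanal at 0.58.

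**Figure D5:**
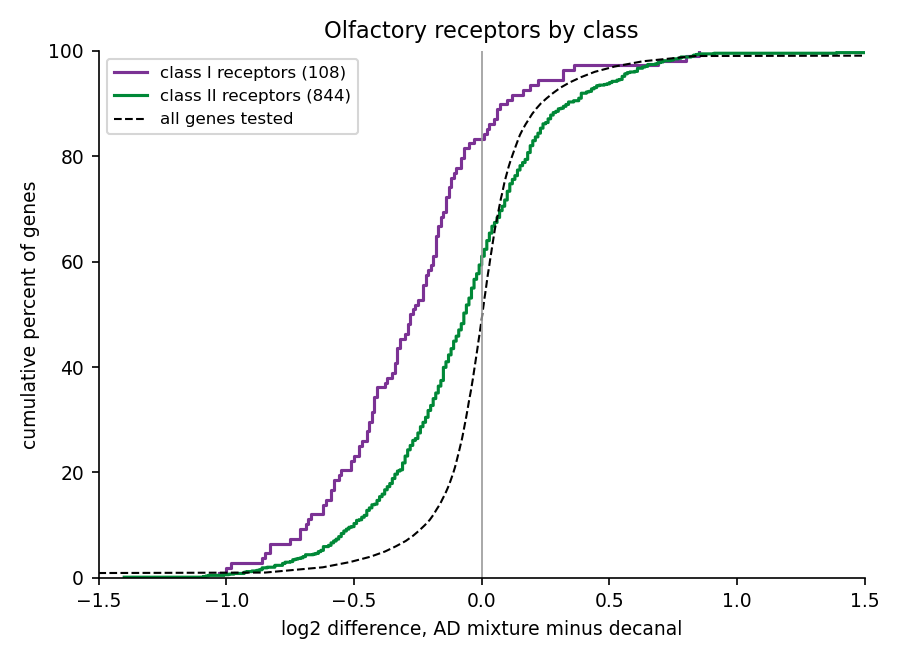
Cumulative percent of class I and class II olfactory receptors, and of all genes tested, by log2 difference, AD mixture minus decanal. The class I curve lies left of the others, with 90 of 108 receptors below 0, and a median that is -0.01 without AD mixture 2.

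Il33, an alarmin that epithelial cells store in their nuclei, was the 1 gene called for acetophenone against no odor (0.00512% of genes). It had 443, 476 and 487 CPM with the mixture, against 415, 420 and 417 CPM with decanal, 654 to 713 CPM with acetophenone and 484 to 509 CPM with no odor. The mixture lay above decanal in all 3 libraries, by 0.17 (95% interval 0.06 to 0.28, adjusted p = 0.887 in edgeR), and below acetophenone. Decanal alone fell against no odor by 0.25 (adjusted p = 0.00289 in edgeR).

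Most enzyme and stress genes had a difference bounded within 2-fold. Of 12 supporting cell genes 0 had an unadjusted p under 0.05 and all 12 had an interval within 2-fold. Cyp2f2 and Cyp1a2, cytochromes P450 that oxidize inhaled compounds, differed by -0.09 (95% interval -0.20 to 0.02) and -0.10 (-0.24 to 0.04), and both fell against no odor with either odorant. Of 36 aldehyde and alcohol enzyme genes 1 was higher and 1 lower at an unadjusted p under 0.05, against 2.91% and 2.67% of all genes, and 33 had an interval within 2-fold. Aldh3b1, an aldehyde dehydrogenase, had 155, 166 and 151 CPM with the mixture, against 175, 171 and 167 CPM with decanal, a difference of -0.12. Targets of NRF2, the factor of the response to electrophiles, had a median of 0.00 over 14 genes, all 14 with an interval within 2-fold. Hmox1, heme oxygenase, differed by -0.11, and Nqo1, a quinone reductase, had 313, 206 and 383 CPM with the mixture, against 321, 393 and 370 CPM with decanal, with AD mixture 2 low. Heat shock and unfolded protein response genes had medians of -0.01 and -0.02. Of 17 unfolded protein response genes 2 were higher and 3 lower at an unadjusted p under 0.05 (5.58% of all genes in either direction), 3 were higher and 5 lower without overlap (9.54% of all genes), and 0 were called. Sdf2l1, a chaperone cofactor of the endoplasmic reticulum, was lower in all 3 mixture libraries, by 0.18.

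Gland genes could not be compared at this precision. Obp2a, an odorant-binding protein, had 20.1, 89.3 and 1836 CPM with the mixture, against 2680, 46.8 and 760 CPM with decanal. Libraries of each group differed more among themselves than the groups did, and the interval of the difference, -4.66 to 2.98, spans both directions. The 19 gland genes had a median of -0.57, which was 0.26 without decanal 1, and 5 had an interval within 2-fold. Gp2, a glycoprotein of secretory granules, was the 1 of them at an unadjusted p under 0.05, at -0.57 with overlap between the groups.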

How the data were processed

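Messenger RNA was sequenced from stranded libraries of whole epithelium homogenate cleared by centrifugation, per the labels' protocols. The authors deposited expected counts per Ensembl gene, 57010 genes for this batch, not scaled between libraries. The submitters' processing notes name STAR 2.7.10b, Salmon 1.10.1, R 4.4.2 and the build GRCm39, and the role of each and the annotation are not given in the sources used here. Estimates that were not whole, 12.8% of values, were rounded (by up to 0.5 counts). Symbols came from GENCODE M21 by Ensembl ID, for 52029 IDs; unnamed IDs held 0.313% of counts.

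Genes were tested with edgeR 4.0.16 in R 4.3.3 (filterByExpr, TMM, quasi-likelihood F-test, two-sided, no block) in 1 fit of the batch's 12 libraries and 4 groups. Adjusted p is Benjamini-Hochberg over all genes tested, called under 0.05. A standard error is the log2 difference over the square root of F, and intervals are at 95%. CPM used TMM library sizes. List medians are descriptions without a test. Shares of counts were compared by exact permutation.

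Members and lists were chosen with earlier results of these data known. Named genes were the 8 of smallest p each way without overlap and a mean count of at least 20, the 4 largest differences each way, genes called by DESeq2, a fixed set, and the 2 of smallest p of each list (3 of the receptors); other list members were named after their values were seen. Alternatives were DESeq2 1.42.0, limma 3.58.1 voom, a robust fit, other scalings and filters, the 6 libraries alone, length and GC offsets, a replicate block and leaving out each library. The comparison with the midpoint was added after the data were seen. The scripts were tested on simulated data.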

Additional observations from a re-analysis of the deposited data

How the results depend on the processing

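Of 68 of the genes named, 60 kept the sign of mixture minus decanal under every alternative. Gm14288 and Olfr766-ps1 were not among the 68. Those of the 68 that did not keep it lay near 0 or varied widely: S100a5 was at -0.00 with length and GC offsets, with or without the replicate block. Leaving out 1 library gave ranges of -0.57 to 0.03 for Npas4, -0.06 to 0.11 for S100a5, -0.17 to 0.09 for Hbb-bs, -0.11 to 0.10 for Spp1, -0.05 to 0.09 for Gnal, -0.10 to 0.07 for Pde1c, -0.00 to 0.21 for Gng13 and -4.40 to 0.69 for Obp2a. The genes called between mixture and decanal were 136 with no low-count filter, 2 by DESeq2, 1 with the robust fit, with length and GC offsets, and with those and the replicate block, and 0 to 1 leaving out a library. With no low-count filter 1748 genes had an unadjusted p under 0.05 and 55.2% of genes an interval within 2-fold, and leaving out 1 library gave 1037 to 1421 genes and 78.3% to 78.7%. For mixture against no odor leaving out 1 library gave 3087 to 4207 calls, for decanal 3388 to 4145 and for the midpoint 624 to 1156. Acetophenone against no odor had 30 calls by DESeq2 and 302 with no low-count filter. Differences in share, in percentage points, ranged from -0.00311 to 0.0618 for mitochondrially encoded transcripts, -0.0270 to 0.0225 for receptors, -0.0273 to 0.0101 for red cells, 0.0316 to 0.108 for bone, 0.0198 to 0.0536 for ribosomal proteins and 0.00260 to 0.0106 for marrow. The cause was not tested. The deviations of same-numbered libraries from the mean of their own group correlated at -0.186 to 0.24. Different-numbered libraries were not compared in this way, so whether the numbers pair samples cannot be told. The replicate block gave 0 calls between mixture and decanal, 4240 for mixture and 4480 for decanal against no odor. The 95% interval of mixture minus decanal had a median distance from estimate to bound on the log2 scale of 0.874 at a mean count under 50 and of 0.139 at 500 or more.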
